A study of Mus musculus with 4 samples.

Results

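The genes described here are 7 chloride transporters and channels, Slc12a2, Slc12a5, Clcn3, Clcn4, Clcn6, Ano2 and Ano6, out of 18143 genes in the deposited tables. They were chosen by name from chloride transport genes, with earlier results of these data known but no cut on a measured value. Each was found in the tables of all 4 mice. Chloride flows through open channels in the direction set by its gradient, so transporters that load or unload the cell decide whether opening a channel excites or inhibits a neuron. Slc12a2 encodes NKCC1, which brings chloride into the cell together with sodium and potassium. Slc12a5 encodes KCC2, a cotransporter of central neurons that carries chloride out with potassium. Sensory neurons of the dorsal root ganglia are known for high internal chloride, kept up by NKCC1. Clcn3, Clcn4 and Clcn6 encode exchangers of chloride for protons in endosomes and lysosomes. Ano2 encodes a chloride channel opened by calcium, known from olfactory neurons and photoreceptor terminals, and Ano6 encodes a calcium-dependent phospholipid scramblase that also passes ions.

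The cells were spiral ganglion neurons, the cochlear afferents that relay sound to the brainstem. They came from 4 male wild-type CBA/CaJ mice aged 9 weeks, with no treatment, and both cochleae of a mouse were pooled into 1 library of 10x Genomics droplet RNA sequencing (v2 chemistry). The dissected core of the cochlea also held limbus, sulcus and organ of Corti tissue, so the suspension contained other cell types as well as neurons. The authors' deposited annotation names 5 populations, with 95 type II neurons (partners of outer hair cells), 505 putative neurons to which no type was given, and type I neurons (partners of inner hair cells) of subtypes IA with 2384 cells, IB with 1625 and IC with 2104. Counts are unique molecular identifiers (UMIs), that is, captured transcript molecules after removal of PCR copies.

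UMIs were summed per mouse and population into 20 sums of 15 to 827 cells and 131668 to 10156321 UMIs, and a level is given in CPM, a gene's UMIs scaled to the total of its sum. Each mouse contributed 1238 to 2232 cells and 15151343 to 27309045 UMIs. Type II neurons together held 1288798 UMIs and type I neurons 80967769, so values of type II are the least precise. All 6 type II markers (Prph, Gata3, Th, Calca, Plk5, Ngfr) were detected in type II cells, at a summed level of 1518 ± 493 CPM, against 116 to 187 CPM on average in the type I subtypes (SD, n = 4 mice). Of the 95 type II cells, 58 held a UMI of Prph, the neurofilament gene peripherin, by which these neurons are recognised. The 7 satellite glia markers were all detected and summed to 5905 to 10851 CPM in type II, 8132 to 9217 CPM in putative neurons, but 1366 to 1782 CPM in IA, IB and IC. Most of each sum was Apoe, at 7365 ± 1772 CPM in type II and 7003 ± 348 CPM in putative neurons, against averages of 907 to 1000.3 CPM in the type I subtypes. Of the other markers, Sox10 averaged 28.9 CPM in type II and 33.9 CPM in putative neurons, against 27.3 to 30.3 CPM in the type I subtypes, and Kcnj10 averaged 36.2 and 31.1 CPM, against 29.0 to 36.4 CPM. At least 3 UMIs of the glial gene Fabp7 were found in 40.0% of type II cells, 19.0% of putative cells and 0.587% to 0.903% of cells of the type I subtypes. Hair cell markers summed to 8.33 ± 4.99 CPM in type II and 4.25 ± 2.67 CPM in putative neurons, against averages of 2.15 to 2.79 CPM in the type I subtypes. In type II Otof averaged 4.32 CPM, against 0.794 to 0.883 CPM in the type I subtypes, and Tmc1 3.37 CPM, against 0.104 to 0.660 CPM. Slc17a8 was level, at 0.640 CPM against 0.592 to 0.661 CPM, and Ocm and Myo7a were at 0 in type II. Across mice, 26 cell barcodes occurred in more than 1 library.

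Differences were tested with edgeR's quasi-likelihood test over 13005 genes that passed a low-count filter, with the mouse as a block. A gene was called at a Benjamini-Hochberg adjusted p under 0.05, and a difference is log2 of the first population over the second, ± its standard error (SE). Type II and putative neurons were each compared with the unweighted mean of IA, IB and IC. Of the 7 genes, 6 passed the filter and Slc12a5, with 64 UMIs in all, did not. Ano2 passed it only through its type II sums, and its comparisons without type II rest on 0 to 6 UMIs per side. UMIs mark the 3′ end of a transcript and are not scaled by length, so levels are compared between populations and not between genes.

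**Figure D1:**
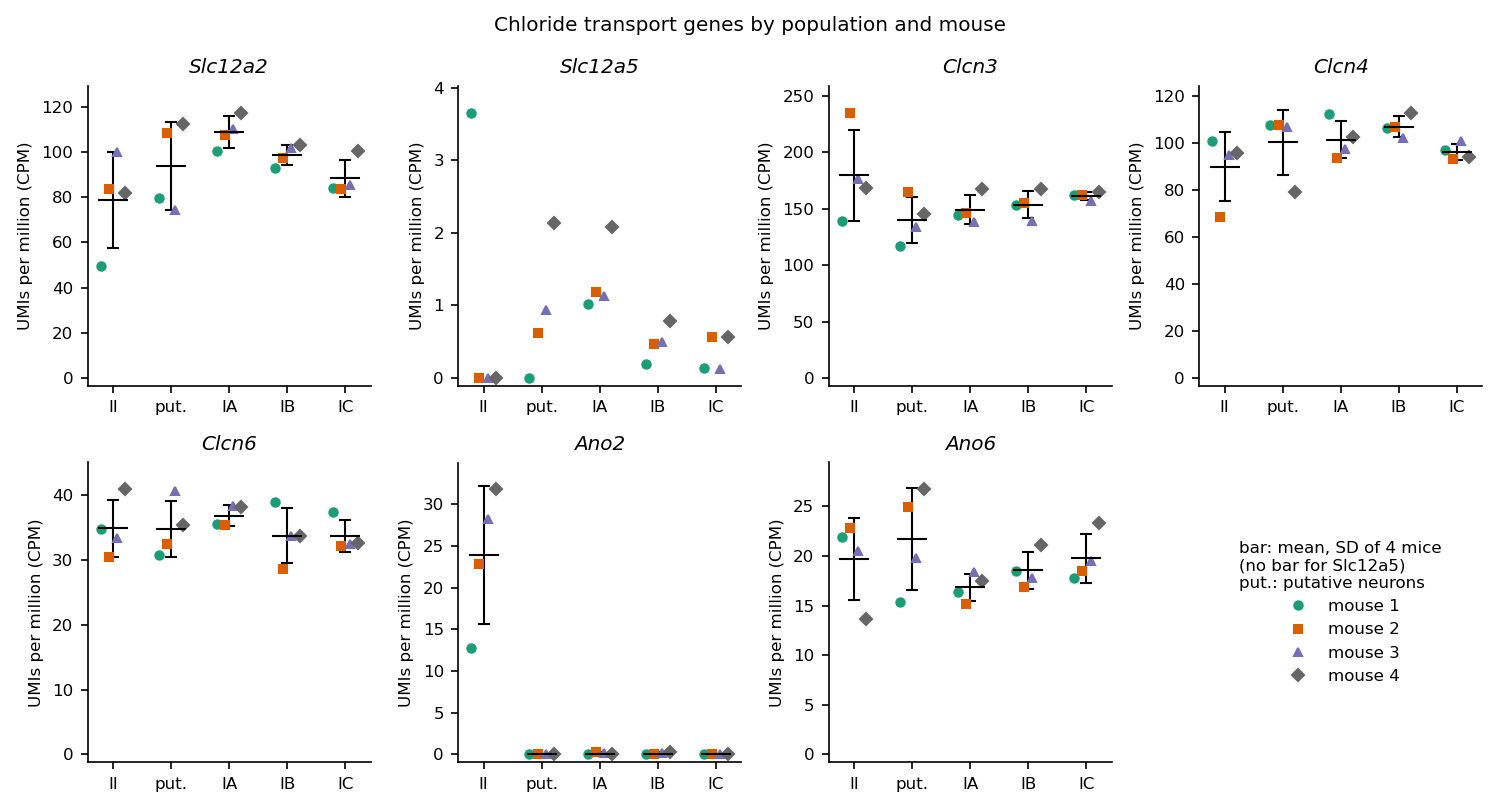
Level of each gene (y axis, CPM) in type II, putative, IA, IB and IC neurons (x axis), with 1 point per mouse and bars for the mean and SD of 4 mice; Slc12a5, with few UMIs, has points only. Ano2 stood at 12.8 to 31.8 CPM in type II and at most 0.295 CPM in any other sum, while the populations overlapped widely in Clcn3, Clcn6 and Ano6.

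Ano2, the calcium-activated chloride channel, was the member that differed most between populations, and it was detected almost only in type II neurons. It had 12.8, 22.8, 28.2 and 31.8 CPM in type II neurons of mice 1 to 4, from 7, 3, 11 and 7 UMIs. The type I subtypes had 6 Ano2 UMIs in all, 4 in IA, 2 in IB and 0 in IC, and putative neurons had 0. Every type II sum thus lay above every other sum. The difference from type I was 8.14 ± 0.62 on the log2 scale (edgeR adjusted p = 1.77e-18, higher in 4 of 4 mice). Ano2 passed the low-count filter only through the type II sums, so this p is not separate support for the difference. Because a gene so close to 0 in type I gives an unstable fitted value, the pooled levels are also given: 21.7 CPM in type II, against 0.0741 CPM in type I.

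Against populations with no Ano2 UMI, the pooled type II level can only be set over a floor of 3 UMIs over the population. That level, 21.7 CPM from 28 UMIs, was 31.3 times the floor of putative neurons, 0.695 CPM. It was 214 times the floor of IC, 0.102 CPM. These ratios leave out the counting error of the type II UMIs, so they are not strict lower bounds. Floors and intervals here cover counting error only. After each cell was thinned to 4215 UMIs, 8.89% of type II cells held an Ano2 UMI (95% exact interval 3.92% to 16.8%), against 0.0528% of type I cells (0.0109% to 0.154%). Without thinning the shares were 22.1% of type II and 0.0982% of type I cells, at median depths of 10862 UMIs per cell in type II and 12400.5 to 14403 in the type I subtypes. No putative cell held an Ano2 UMI, 0 of 268 cells after thinning, which allows a share of up to 1.12% of cells with an Ano2 UMI at that depth and sets no limit on cells that express the gene. No type II cell had more than 3 Ano2 UMIs.

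Within type II, Ano2 was higher in cells with Prph. The 58 cells with a Prph UMI held 25 of the 28 Ano2 UMIs, in 18 cells, at 48.2, 24.5, 46.4 and 37.6 CPM in mice 1 to 4. The 37 type II cells without a Prph UMI held 3, at 0, 20.0, 5.72 and 16.5 CPM. Depth differed too, at a median of 9911 UMIs per cell with a Prph UMI and 15248 without, and its part was not tested. The cells with Prph were higher in every mouse, although in mouse 2 the values rest on 2 UMIs and 1 UMI. Restricted to type II cells with Prph, and with the same limit of the filter, the difference from type I was 8.79 ± 0.67 (edgeR adjusted p = 1.19e-27). Split by glial RNA, Ano2 had a pooled 22.2 CPM in type II cells with 3 or more Fabp7 UMIs and 21.5 CPM in those with fewer. Over the 20 sums the genes most like Ano2 were Slc6a4, the serotonin transporter (Pearson r = 0.99), Chrna5, a nicotinic acetylcholine receptor subunit (r = 0.98), and Mxra7 (r = 0.98). These correlations describe sums that share libraries and mostly separate type II from the rest.

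**Figure D2:**
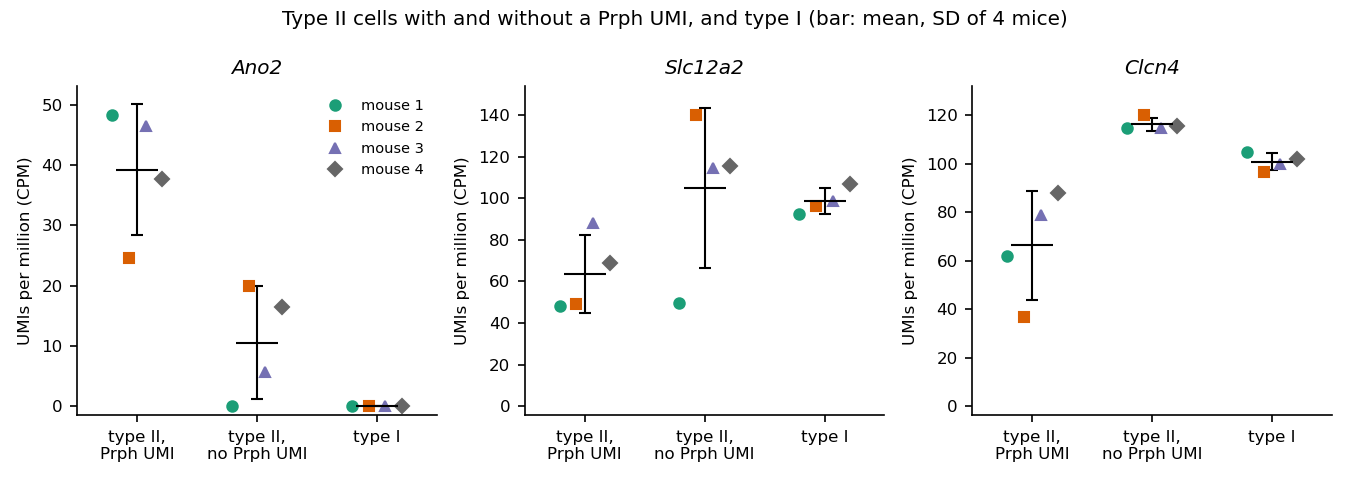
Levels of Ano2, Slc12a2 and Clcn4 (y axis, CPM) in type II cells with a Prph UMI, type II cells without one, and type I cells pooled per mouse (x axis), with 1 point per mouse and bars for the mean and SD of 4 mice. Ano2 lay at 24.5 to 48.2 CPM with Prph, at 0 to 20.0 CPM without it and at 0 to 0.117 CPM in type I; Clcn4 lay at 36.7 to 87.8 CPM with Prph, below all type II values without it.

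The Ano2 gene spans chr6:125690419-126040126 on the plus strand (GRCm38, the build the authors used as mm10, annotation GENCODE M21). The 250 bases before its RefSeq start (GRCm38.p6) are printed because Ano2 is the member that separates a population, and those of Clcn4 because it is the other member whose window overlaps no annotated exon. In the Clcn4 gene (chr7:7282309-7300851, minus strand) the RefSeq start lies inside the longer GENCODE gene model. Of the 7 genes, 6 had an entry in the RefSeq promoter table (not Slc12a2). Both windows run 5′ to 3′ on the gene's strand. Capitals mark matches to AGATAA, the letters bound by GATA factors, in Ano2, and to CACGTG, an E-box, and TGACGT, the core of a cAMP response element, in Clcn4. 
Ano2, chr6:125690169-125690418, plus strand: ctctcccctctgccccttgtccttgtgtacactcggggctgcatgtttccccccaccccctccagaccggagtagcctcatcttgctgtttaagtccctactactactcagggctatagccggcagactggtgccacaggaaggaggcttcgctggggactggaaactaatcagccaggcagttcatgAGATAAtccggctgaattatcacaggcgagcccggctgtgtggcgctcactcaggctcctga
Clcn4, chr7:7299558-7299807, minus strand: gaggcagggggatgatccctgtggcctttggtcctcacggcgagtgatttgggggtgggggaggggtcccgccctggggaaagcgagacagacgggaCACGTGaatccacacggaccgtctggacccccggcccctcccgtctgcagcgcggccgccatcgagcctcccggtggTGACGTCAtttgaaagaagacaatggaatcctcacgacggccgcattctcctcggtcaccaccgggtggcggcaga

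Both strands were searched, and the second run of capitals in Clcn4 holds TGACGT once on each strand, overlapping. The Ano2 match begins 62 bases before the start, the E-box of Clcn4 153 bases before it. Of 27025 promoters of the same length, 10.3% hold AGATAA, 6.05% CACGTG and 6.56% TGACGT. The Ano2 window has 58.0% G and C with 8 CpG pairs and the Clcn4 window 66.0% with 22, against medians of 52.0% and 6 over all promoters. These matches describe letters, and no factor binding was measured.

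Slc12a2, the chloride importer NKCC1, was detected in every population and was graded across type I neurons, highest in IA and lowest in IC. It lies on chromosome 18 (chr18:57878678-57946821, plus strand). The IA sums of mice 1 to 4 had 101, 107, 110.3 and 117 CPM. The IB sums had 93.1, 97.5, 102 and 103 CPM, and the IC sums 83.9, 83.4, 85.3 and 100.50 CPM. Within each mouse IA was above IB and IB above IC, but IA and IB overlapped in range, as did IB and IC, and the lowest IA value, 100.56 CPM, only just cleared the highest IC value.

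The difference of IA from IC in Slc12a2 was 0.33 ± 0.05 on the log2 scale (edgeR adjusted p = 6.02e-07, higher in 4 of 4 mice). It was the 1 member called of the 6 tested there, where 32.4% of all genes tested were called. It was called in each of 12 alternative settings, at 0.29 to 0.39. IB was above IC by 0.18 ± 0.06 (edgeR adjusted p = 0.0226, higher in 4 of 4 mice), but this call held in only 5 of 12 alternatives. In edgeR it was lost without mouse 1 (adjusted p = 0.0534), without mouse 2 (0.123) and without mouse 3 (0.191). It was also lost with DESeq2, at equal depth, without the mouse block and with rebuilt labels. IA was above IB by 0.15 ± 0.06 in 4 of 4 mice and did not pass the test (edgeR adjusted p = 0.065). No member was called there by edgeR or DESeq2, while edgeR called 15.8% of all genes tested, and Slc12a2 was the 1 member with an unadjusted p under 0.05. At equal depth per cell, 36.6% of IA, 31.3% of IB and 29.9% of IC cells held a Slc12a2 UMI, against 66.0%, 65.3% and 63.6% without thinning.

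In type II neurons Slc12a2 had 49.4, 83.5, 99.9 and 81.8 CPM in mice 1 to 4, against type I means of 92.5 to 107 CPM. Mouse 1 was far below the rest and mouse 3 lay within the type I range, so the groups overlapped. The log2 difference was -0.44 ± 0.16 (edgeR adjusted p = 0.0286), lower in 4 of 4 mice after scaling for library composition and in 3 of 4 by CPM. Along with Ano2, tested only because of its type II sums, it made 2 of 6 members called, where 23.7% of all genes tested were called. Without mouse 1 the difference was -0.21 and was not called (edgeR adjusted p = 0.471). Nor was it called with DESeq2 (adjusted p = 0.0635), with RLE scaling of edgeR (0.0646), or with cell labels rebuilt from the other mice (-0.07, adjusted p = 0.721). The rebuilt labels kept 90 of the 95 type II cells and added cells of other populations. Their type II sums held 29, 51, 53 and 40 cells in mice 1 to 4, against 23, 15, 34 and 23 as deposited.

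The size of this difference varied with the glial RNA and the Prph UMIs of the cells kept. Slc12a2 had a pooled 88.8 CPM in type II cells with 3 or more Fabp7 UMIs and 67.9 CPM in those with fewer, but averaged over mice the levels were 76.1 ± 42.3 and 76.7 ± 26.9 CPM (SD, n = 4) and showed no such gap. In putative neurons the averages were 154 ± 42.2 and 88.0 ± 16.9 CPM. In type I neurons they were 113 ± 85.5 and 98.7 ± 5.86 CPM, where the pooled levels ran the other way at 84.1 and 98.1 CPM. Without such cells in any population the type II difference was -0.59 (edgeR adjusted p = 0.0167). In type II cells with a Prph UMI Slc12a2 had 48.2, 49.0, 88.1 and 69.0 CPM, and with only those cells the difference from type I was -0.68 (edgeR adjusted p = 0.00936). With both restrictions, a choice made after the values were seen, it was -1.20 (edgeR adjusted p = 0.00207).

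Putative neurons had 79.4, 109, 74.5 and 112 CPM of Slc12a2, 2 mice below and 2 above the type I means. The difference was -0.04 ± 0.08 (95% interval -0.20 to 0.13, edgeR adjusted p = 0.813). With rebuilt labels, which left 70.7% of putative cells in that population and brought in cells of others, it turned to 0.23 and was called (edgeR adjusted p = 0.00804). Ordered by mean level, Slc12a2 ran from IA through IB, putative and IC to type II, and each neighbouring pair overlapped in range. Over the 20 sums Fam208b (Pearson r = 0.95), Rgl2 (r = 0.87) and Msantd2 (r = 0.86) were most like Slc12a2.

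**Figure D3:**
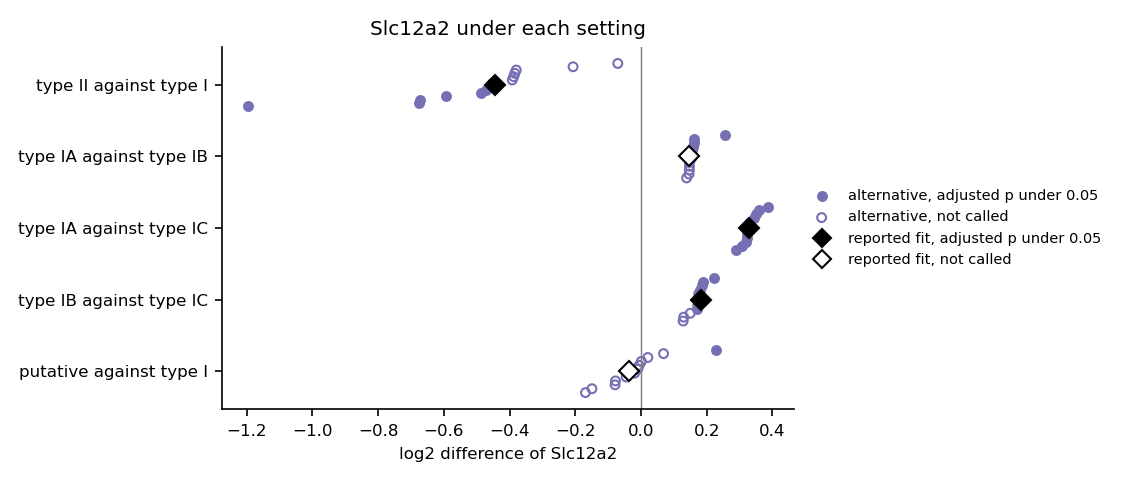
Log2 difference of Slc12a2 (x axis) in each comparison (y axis), as reported (diamonds) and under each alternative setting (circles), filled where the adjusted p is under 0.05. IA against IC kept to 0.29 to 0.39 in every setting run and was called in each, whereas type II against type I ranged over -1.20 to -0.07 and was called in 8 of 14 alternatives.

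Slc12a5, the chloride extruder KCC2, was close to the limit of detection everywhere. It lies at chr2:164960802-164999731 on the plus strand. Type II neurons had 2, 0, 0 and 0 UMIs in mice 1 to 4 and putative neurons 0, 1, 1 and 2. IA had 7, 12, 9 and 10 UMIs, IB 1, 3, 3 and 3, and IC 1, 5, 1 and 3. In CPM this is 1.01 to 2.08 in IA, 0.189 to 0.783 in IB and 0.124 to 0.559 in IC, so that the IA mice lay above all IB and IC mice.

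Slc12a5 did not pass the low-count filter and so has no reported test. With no filter, IA was above IC by 1.86 ± 0.50 on the log2 scale (edgeR adjusted p = 0.00152) and above IB by 1.44 ± 0.51 (edgeR adjusted p = 0.0464). Without mouse 2 or mouse 3 Slc12a5 passed the filter. IA was then above IC by 2.35 and 1.63, both called (edgeR adjusted p = 0.00255 and 0.0177), and above IB by 1.48 and 1.53, neither called (0.0995 and 0.085). Of the IA cells 1.51% held a UMI, against 0.615% of IB and 0.475% of IC cells. At equal depth the shares were 0.78% in IA (95% exact interval 0.455% to 1.25%), 0.262% in IB (0.0714% to 0.669%) and 0.152% in IC (0.0313% to 0.443%). With no filter, Slc12a5 of type II differed from type I by 1.34 ± 1.26 (edgeR adjusted p = 0.58) and that of putative neurons by 0.52 ± 0.83 (edgeR adjusted p = 0.758), so a difference was not detectable at this depth.

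The Slc12a2 to Slc12a5 ratio was compared because the 2 cotransporters move chloride in opposite directions. At ample counts, a change of this ratio between populations does not depend on how well each transcript is captured. At the few Slc12a5 UMIs found here, the 0.5 UMI added to each count makes the ratio depend on depth and capture too. With 0.5 UMI added to each count, the log2 ratio of IA was below that of IC by -1.64 ± 0.75 (SD, n = 4), lower in 4 of 4 mice. The exact two-sided sign-flip permutation p was 0.125, the smallest that 4 mice allow. For type II and putative neurons no change of the ratio can be read at this depth. The type II sums of mice 2 to 4 held 0 Slc12a5 UMIs, and their log2 ratios of 4.52, 6.30 and 5.21 are the highest that their Slc12a2 counts allow, below the type I mean of 7.27. The same holds for putative neurons of mouse 1, at 6.85.

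The 3 intracellular exchangers differed little between populations. Clcn3 (chr8:60910389-60983300, minus strand) had 139, 235, 177 and 168 CPM in type II neurons, against type I means of 144 to 167 CPM. The second mouse was high and the others lay near the type I range. The difference was 0.07 ± 0.11 (95% interval -0.15 to 0.29, edgeR adjusted p = 0.73). Putative neurons had 117 to 165 CPM. The IA, IB and IC sums had 138 to 168, 139 to 168 and 157 to 165 CPM. The gene was called in no comparison as reported; IA against IC, at -0.10 ± 0.05 (edgeR adjusted p = 0.125), was called only without mouse 4, and putative neurons against type I, at -0.10, only with rebuilt labels (-0.27, edgeR adjusted p = 0.000363).

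Clcn4 had 101, 68.4, 94.8 and 95.4 CPM in type II neurons, against type I means of 97.7 to 105 CPM, a log2 difference of -0.17 ± 0.14 (edgeR adjusted p = 0.42). Within type II the gene differed with Prph. Cells with a Prph UMI had 62.0, 36.7, 78.8 and 87.8 CPM in mice 1 to 4, and cells without one had 115, 120.0, 114 and 116 CPM, which do not overlap. Type I cells pooled per mouse had 96.6 to 105 CPM, between the 2 groups. With type II limited to cells with Prph, Clcn4 was lower than in type I by -0.65 ± 0.21 (edgeR adjusted p = 0.0112). This call too changed with the cells kept. In type II cells with 3 or more Fabp7 UMIs the pooled level was 63.8 CPM and in those with fewer 107 CPM. Averaged over mice these were 54.7 ± 38.8 CPM, with the lowest mouse at 0, and 105 ± 7.70 CPM (SD, n = 4). Putative neurons had the same order, at 60.2 ± 11.4 and 104 ± 13.8 CPM. In type I neurons the averages were level, at 101 ± 14.1 and 101 ± 3.39 CPM. With both restrictions, which left 6, 6, 10 and 6 type II cells in mice 1 to 4, the difference was -0.49 and not called (edgeR adjusted p = 0.208). Type II cells with 3 or more Fabp7 UMIs had a median of 6932.5 UMIs and those with fewer 12970, and the Prph groups differed in depth as well. The Fabp7 and Prph groups share cells, and the part of each and of depth was not tested.

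Within type I, Clcn4 had 106, 106, 102 and 113 CPM in IB and 96.8, 93.1, 101 and 93.8 CPM in IC. All IB mice were above all IC mice, and the difference was 0.16 ± 0.06 (edgeR adjusted p = 0.0454). With Slc12a2 this made 2 of 6 members called between IB and IC, where 12.0% of all genes tested were called. The Clcn4 call held in 3 of 12 alternatives. It was lost with DESeq2 (adjusted p = 0.159), and in edgeR without mouse 1 (adjusted p = 0.107), mouse 2 (0.189) or mouse 4 (0.178), without the mouse block (0.355), at equal depth (0.281), with no filter (0.0883), without cells rich in Fabp7 (0.0667) and with RLE scaling (0.0538). IA, with 93.4 to 112 CPM, overlapped both other subtypes.

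Clcn6 (chr4:148004259-148038821, minus strand) was the most even member by mean level. It had 30.4 to 40.9 CPM in type II, 30.7 to 40.5 CPM in putative neurons, 35.3 to 38.3 CPM in IA, 28.6 to 38.9 CPM in IB and 32.2 to 37.3 CPM in IC. Type II differed from type I by -0.08 ± 0.22 (95% interval -0.50 to 0.35), so a change of the size seen for Slc12a2 cannot be told from none. IA against IC, at 0.15 ± 0.07 (edgeR adjusted p = 0.109), was called only without mouse 1.

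Ano6 (chr15:95790843-95974751, plus strand) likewise was called in no comparison as reported. It had 22.0, 22.8, 20.5 and 13.6 CPM in type II and 15.3, 25.0, 19.8 and 26.8 CPM in putative neurons. The type I subtypes spread over 15.2 to 18.3 CPM in IA, 16.8 to 21.1 CPM in IB and 17.8 to 23.3 CPM in IC, all overlapping. IA was below IC in 4 of 4 mice, by -0.20 ± 0.10 (edgeR adjusted p = 0.106), and this was called only without the 5% deepest cells (-0.25, edgeR adjusted p = 0.0402). Putative neurons differed from type I by 0.30 ± 0.16 (edgeR adjusted p = 0.162). No member was called between putative neurons and type I by edgeR or DESeq2 and 0 had an unadjusted p under 0.05, where edgeR called 23.5% of all genes tested. A130051J06Rik and Gm17546, antisense to Ano6, are counted as genes of their own in the tables.

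**Figure D4:**
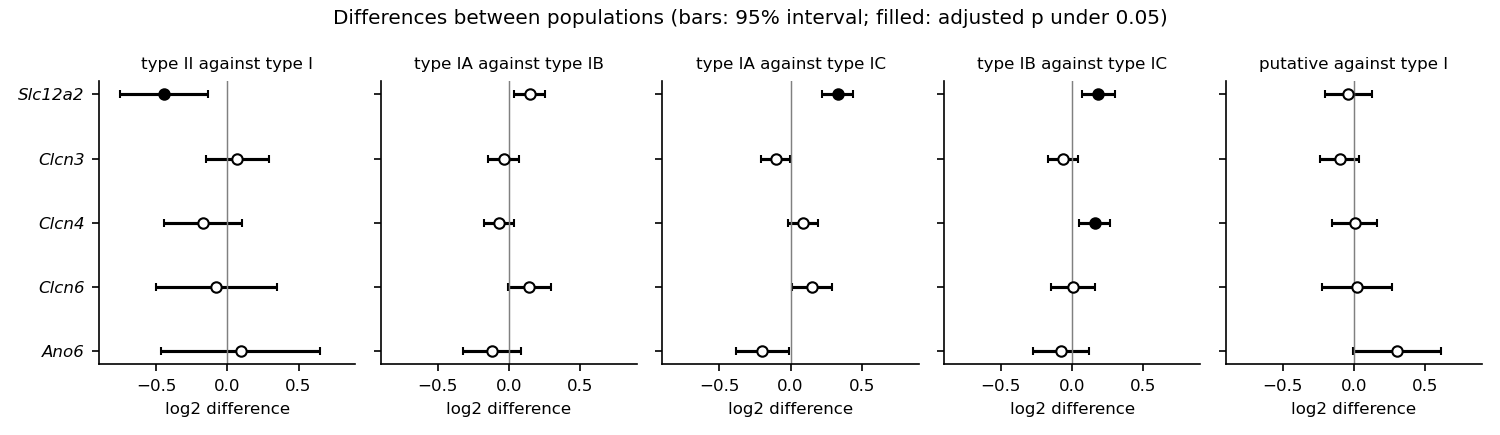
Log2 difference (x axis) with its 95% interval for the members that passed the filter, except Ano2, in each of the 5 comparisons, filled where the adjusted p is under 0.05. Apart from Slc12a2 in 3 comparisons and Clcn4 in IB against IC, the members were not called, and the intervals of type II against type I were the widest.

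Among the members that passed the filter other than Ano2, none differed by more than 0.44 on the log2 scale in any comparison as reported. The median of the 6 members was 0.00 for type II against type I, where the median over all genes was -0.05, and 0.12 for IA against IC, where it was -0.01. The genes most like the others over the 20 sums were Pcdhga12 (Pearson r = 0.87), Mapk7 (r = 0.86) and Fam229a (r = 0.83) for Clcn3, Arsa, Zdhhc3 (both r = 0.90) and Zfp354c (r = 0.89) for Clcn4, Aff4 (r = 0.75), Rhobtb1 (r = 0.74) and Rnf20 (r = 0.70) for Clcn6, and Slc29a1 (r = 0.80), Spint1 and Flna (both r = 0.79) for Ano6.

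A further 88 chloride genes were listed by function, of which 69 were in the tables and 44 were tested. Between type II and type I, 5 of these were higher and 8 lower, beside 23.7% of all genes tested called in either direction. Between IA and IC, 10 were higher and 9 lower, beside 32.4%. Between IA and IB, 7 were higher and 7 lower, beside 15.8%. Between IB and IC the counts were 3 higher and 5 lower, beside 12.0%. Between putative neurons and type I they were 7 higher and 3 lower, beside 23.5%. The counts per list below rest on few genes and were not tested against these shares.

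Among the cotransporters and the kinases that control them, 9 were tested. In type II, 1 was higher and 2 lower than in type I, beside 23.7% of all genes tested called. Slc12a7, the potassium-chloride extruder KCC4, had 109 ± 45.8 CPM in type II and 199.9 ± 4.06 CPM in type I (SD, n = 4), a difference of -0.72 ± 0.13 (edgeR adjusted p = 2.08e-05, lower in 4 of 4 mice). Wnk2, a kinase of the chloride-sensing WNK family, fell by 0.71 on the log2 scale. Stk39, the SPAK kinase that phosphorylates these cotransporters, was higher by 0.42 ± 0.11, but in 2 of 4 mice only, and was lower (-0.35, edgeR adjusted p = 0.0988) when type II was limited to cells with Prph. Without mouse 1 the Stk39 difference was 0.12 (edgeR adjusted p = 0.628). With type II limited to cells with Prph, Slc12a7 stood at -1.49 and Wnk2 at -1.06, both called.

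IA was above IC in 3 of these 9 and below it in 2, beside 32.4% of all genes tested called. The potassium-chloride extruder Slc12a7 was higher in IA by 0.29 ± 0.06, and Wnk3 by 0.40 ± 0.11, each in 4 of 4 mice. Slc12a7 had 224 ± 13.0 CPM in IA and 185 ± 3.44 CPM in IC. Stk39 (-0.26) was lower. Wnk2 (0.24) was also higher and Wnk1 (-0.22) lower, 2 genes named after their values were seen. IA was also above IB in Wnk2 (0.27) and Slc12a7 (0.24). IB was above IC in Wnk3 (0.38) and below it in Stk39 (-0.17). In putative neurons Slc12a7 (-0.21) was lower than in type I, and Wnk4 was higher by 1.63 ± 0.41 on 21 UMIs, in 3 of 4 mice. Several of these smaller calls were lost with 1 mouse left out. For IB against IC this was Wnk3 (0.34 without mouse 1, 0.30 without mouse 4) and Stk39 (-0.17 without mouse 2, -0.16 without mouse 3). In putative neurons it was Slc12a7 (-0.20, -0.14 and -0.18 without mouse 2, 3 or 4) and Wnk4 (1.18 without mouse 2).

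Of 4 other CLC genes and partners tested, Clcn7, the lysosomal exchanger, was lower in type II, with 8.45 ± 7.52 CPM, against 22.2 ± 1.76 CPM in type I (-0.99 ± 0.34). This call rests on 15 UMIs in type II and was lost without mouse 2, mouse 3 or mouse 4 (-0.85, -1.06 and -0.80). In IA, Clcn7 (0.48 ± 0.09) and Ostm1, its beta subunit (0.52 ± 0.11), were higher than in IC, and Ostm1 was also higher than in IB (0.37). Clcn5, an endosomal exchanger, was lower in IA than in IB (-0.54 ± 0.13) and in IC (-0.58 ± 0.12). Against IB, both IA calls were lost without mouse 3 (Clcn5 -0.41, Ostm1 0.37). Between putative neurons and type I, edgeR and DESeq2 called 0 of the 4, with 0 at an unadjusted p under 0.05. Between IB and IC both also called 0, with 1 at an unadjusted p under 0.05.

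Of 4 other anoctamins, edgeR and DESeq2 called 0 between type II and type I, with 0 at an unadjusted p under 0.05. Between IA and IB they also called 0, although all 4 were higher in IA at an unadjusted p under 0.05 in edgeR. Ano10 was higher in IA than in IC (0.52 ± 0.10) and in IB than in IC (0.30 ± 0.11). Ano3 was lower in both against IC (-0.22 ± 0.06 for IA, -0.38 ± 0.07 for IB), and lower in putative neurons than in type I (-0.32 ± 0.12). The Ano10 call of IB against IC was lost without any 1 mouse (0.27 to 0.35) and turned to -0.18, not called, at equal depth per cell. The Ano3 call of IA against IC was lost without mouse 2 (-0.16), and that of putative neurons without mouse 1, 3 or 4 (-0.28, -0.27 and -0.32).

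Among 14 other anion channel genes, 4 were higher and 1 lower in type II than in type I, beside 23.7% of all genes tested called. Clic1, a chloride intracellular channel protein, had 197 ± 78.2 CPM in type II, against 29.8 ± 5.97 CPM in type I, the largest difference of the list at 2.61 ± 0.13 (edgeR adjusted p = 1.67e-29, higher in 4 of 4 mice), and 3.16 in cells with Prph. Clic6 was higher by 1.67 ± 0.48 in 2 of 4 mice, stood at 0.15 without mouse 1 and was not called there, and stood at -1.19, not called, in cells with Prph. Lrrc8c, a subunit of the volume-regulated anion channel, was lower (-0.80 ± 0.27, not called without mouse 3 at -0.59, mouse 4 at -0.67 or cells rich in Fabp7 at -0.62), while Lrrc8b (0.75) and Ttyh1 (0.72), named after their values were seen, were higher. Beside 23.5% of all genes tested called, putative neurons were above type I in 4 of the 14. These were Clic1 (1.31 ± 0.10), Clic4 (0.96 ± 0.10), Lrrc8b (0.88 ± 0.16) and Ttyh1 (0.62 ± 0.12). Summed satellite glia markers were higher in both populations, at 9024 ± 2160 CPM in type II and 8634 ± 470 CPM in putative neurons, against 1556 to 1641 CPM on average in the type I subtypes. Without cells with 3 or more Fabp7 UMIs, Clic1 stood at 2.45 in type II and 1.20 in putative neurons, where Clic4 stood at 0.97 and Lrrc8b at 0.93, all called. In putative neurons fibrocyte markers summed to 1445 ± 474 CPM, against 464 to 482 CPM on average in the type I subtypes. Col1a1 of that list was near level, at 5.50 against 3.88 to 4.44 CPM. Supporting cell markers (120 against 49.4 to 51.4 CPM) and stria marginal markers (38.7 against 13.7 to 17.0 CPM) also averaged higher there. So did endothelial markers (98.3 against 51.6 to 53.1 CPM). Macrophage markers were near level (41.4 against 37.8 to 39.4 CPM), and myelinating Schwann cell markers lower (2744 against 2883 to 3276 CPM). The part of RNA of fibrocytes and these other cells in these results, and that of glial RNA in the values of Ttyh1 and the type II value of Lrrc8b, was not tested.

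In the same list IA was lower than IC in 4 and higher in 2, beside 32.4% of all genes tested called. Clic6 had 1.28 ± 0.41 CPM in IA and 7.89 ± 0.34 CPM in IC (-2.65 ± 0.24). Best1, bestrophin, a chloride channel opened by calcium, had 1.69 ± 0.34 CPM in IA and 6.40 ± 1.52 CPM in IC (-1.89 ± 0.22). Ttyh3 was also lower, with 6.46 ± 0.88 CPM in IA and 13.1 ± 1.16 CPM in IC. IB was between them, with Clic6 lower by -0.89 ± 0.19 and Best1 by -1.13 ± 0.21 against IC. Against IB, IA was lower in Clic6 (-1.76), Ttyh3 (-0.66) and Clic4 (-0.39), and 2 further genes were higher.

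Of 11 anion exchanger genes, 3 were lower in type II than in type I, beside 23.7% of all genes tested called. Slc4a7, a sodium bicarbonate cotransporter that carries no chloride, had 7.85 ± 6.03 CPM in type II, against 36.1 ± 2.92 CPM in type I (-1.86 ± 0.32). Slc4a3, the chloride-bicarbonate exchanger AE3, was lower by -1.14 ± 0.21, and Slc4a8, a sodium-driven exchanger of chloride for bicarbonate, by -0.73 ± 0.28. The Slc4a8 call was lost without mouse 2, 3 or 4 (-0.57, -0.61 and -0.71). In IA, the sodium-coupled bicarbonate transporters differed in sign, with Slc4a10 above IC by 0.72 ± 0.12 and Slc4a4 below it by -0.63 ± 0.07, and the exchanger AE2, Slc4a2, was 0.35 ± 0.07 above IC. Against IB, IA was higher in Slc4a10 (0.48) and lower in Slc4a7 (-0.33) and Slc4a4 (-0.23), and IB was above IC in Slc4a7 (0.40) and below it in Slc4a4 (-0.40). In putative neurons the sulfate transporter Slc26a2 (0.99 ± 0.29) and Slc26a7 (2.51 ± 0.17, in 3 of 4 mice) were higher than in type I. Slc26a7 varied widely there, at 30.5 ± 23.2 CPM (SD, n = 4) and from 1.39 to 55.5 CPM between mice. The part of RNA of fibrocytes and other cells was not tested here either. With a mouse left out, the call of Slc4a10 against IB was lost without mouse 1 (0.37), that of Slc4a4 against IB without mouse 1, 2 or 3 (-0.20, -0.23 and -0.21) and that of Slc26a2 without mouse 4 (0.80).

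Of 22 listed subunits of chloride-permeable receptors, 2 were tested. Glrb, the beta subunit of the glycine receptor, had 135 ± 48.7 CPM in type II, against 260.2 ± 20.7 CPM in type I, a difference of -0.92 ± 0.12 (edgeR adjusted p = 1.10e-08) that was -2.20 in cells with Prph. It was also lower in IA than in IB (-0.22 ± 0.06, not called without mouse 2 at -0.20) and in putative neurons than in type I (-0.29 ± 0.07). Between IA and IC, edgeR and DESeq2 called 0 of the 2, with 0 at an unadjusted p under 0.05 in edgeR, and between IB and IC they called 0, with 1 at an unadjusted p under 0.05.

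**Figure D5:**
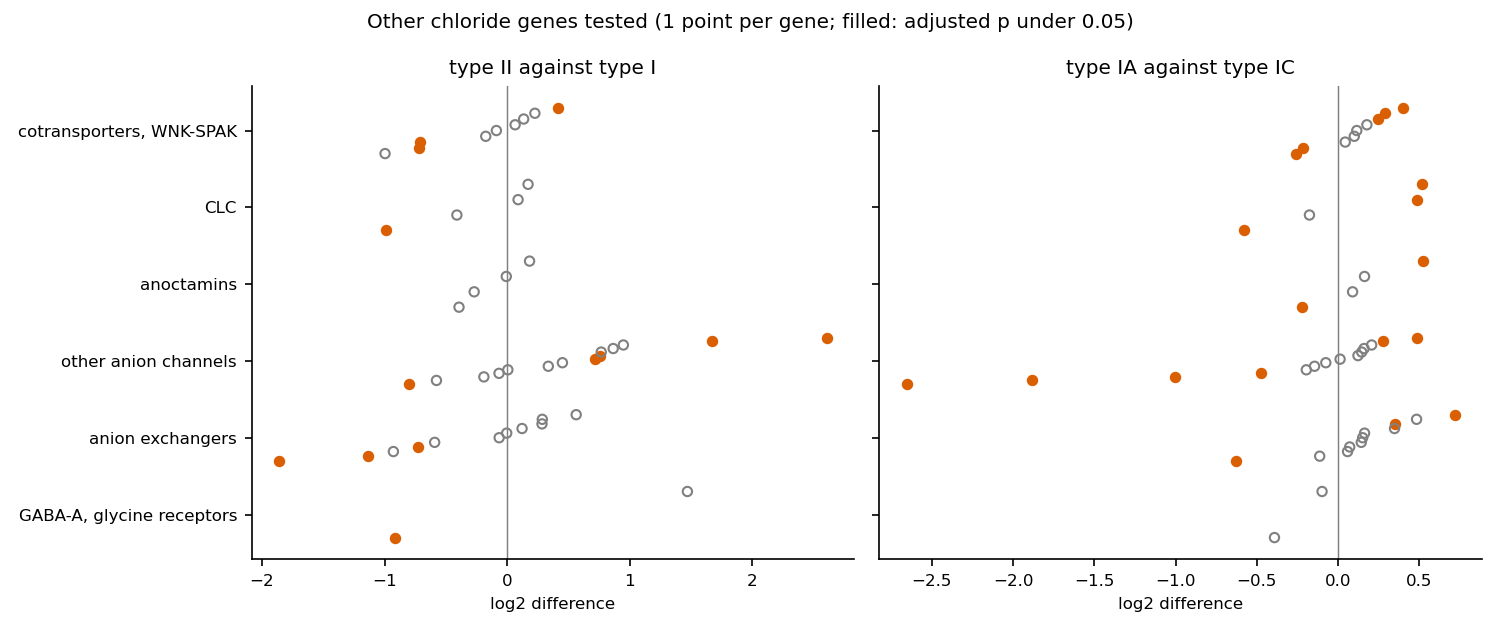
Log2 differences (x axis) of the 44 other chloride genes tested, by function list (y axis, 1 point per gene), for type II against type I and IA against IC, filled where the adjusted p is under 0.05. Clic1 at 2.61 and Slc4a7 at -1.86 are the outermost called genes of type II against type I, and Clic6 at -2.65 and Best1 at -1.89 lie lowest for IA against IC.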

How the data were processed

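The authors deposited raw UMI counts per gene and cell, 1 table per mouse. Per the submitters' processing notes, Cell Ranger 2.0.1, Seurat 1.4 and mm10 were used. The sources used here do not give the cell filters or how cells were labelled. The labels come from these same cells and were used as deposited, with no clustering and no doublet removal. UMIs were summed per mouse and population and fitted over all genes in edgeR 4.0.16 (R 4.3.3; filterByExpr, TMM, quasi-likelihood; 12 residual degrees of freedom, biological coefficient of variation 0.0486), and with DESeq2 1.42.0 as an alternative. The mouse is a block, since populations of 1 mouse come from the same animal: deviations of same-mouse sums correlated at a median of 0.168, and those of different mice at -0.049. Thinning used percentile 10 of UMIs per cell and removed 5 type II, 237 putative, 205 IA, 98 IB and 126 IC cells. The members, marker and gene lists were chosen with earlier results of these data known. Genes named beyond the members are, per list and comparison, at most 3 called genes by size (some listed genes are not reported here and are in no list count), and the 3 genes most like each member. Genes that separate populations are not independent of the labels.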

Additional observations from a re-analysis of the deposited data

Results flagged for a closer look

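In groups of 4 mice, a level was singled out when its gap to the nearest mouse took most of the group's range (Dixon's test). This held in 5 of 33 groups. Chance gives about 1 in 20 for independent, normally spread values. These groups share mice and some hold few UMIs, so the count cannot be set against that rate. Slc12a2 in IC was highest in mouse 4, at 100.5 CPM, and Slc12a5 in IA was highest in mouse 4, at 2.08 CPM. Slc12a5 in type II had UMIs in mouse 1 only, at 3.66 CPM from 2 UMIs. Clcn4 in putative neurons was lowest in mouse 4, at 79.2 CPM. Clcn6 in IC was highest in mouse 1, at 37.3 CPM.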

How the results depend on the processing

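Members called between type II and type I numbered 2, with 1 (Ano2) under DESeq2, under RLE scaling, without the 5% deepest cells and with rebuilt labels, 0 at equal depth, where Ano2 failed the filter and has no value, and 1 to 2 with a mouse left out. With type II limited to cells with Prph they numbered 3, Slc12a2, Clcn4 and Ano2. Between IA and IB 0 became 2 with no low-count filter and 1 without cells rich in Fabp7, at equal depth, without the deepest cells and with rebuilt labels, each time with Slc12a2. Between IA and IC 1 became 2 with no filter and without the deepest cells, and 2 with each mouse left out in turn. Between IB and IC 2 became 0 under DESeq2, at equal depth and with no replicate block, 1 under RLE scaling, with no filter, without cells rich in Fabp7 and with rebuilt labels, and 0 to 1 with a mouse left out. For putative neurons 0 became 2 with rebuilt labels, where Slc12a2 turned to 0.23. In the other comparisons leaving out the block changed no count of called members. Log2 differences turned sign for Ano10 (IB against IC) at equal depth, to -0.18, and in type II with Prph for Clic6, -1.19, and Stk39, -0.35, or, with cells rich in Fabp7 left out too (added after the data were seen), -6.87 (Clic6 then has 0 UMIs in type II, so its size is arbitrary) and -0.41. Over the members' alternatives, 22 values lost a call, 10 gained one in the same direction and 1, Slc12a2 in putative neurons, turned sign and was called. Differences that were never called also changed sign between settings, as Ano6 in type II did (-0.19 to 0.52). Of 54 called results of other chloride genes, 23 were called in every alternative run and 51 kept their sign in each. The causes were not tested. The Slc12a2 to Slc12a5 difference of IA from IC stayed below 0 in every setting run.

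Counts over all genes moved by more than 1.5 times in some settings: for type II 3088 became 1914 without cells rich in Fabp7 and 1920 at equal depth; for IA against IB 2056 became 945 without the block, 1367 without mouse 3 and 1116 at equal depth; for IA against IC 4212 became 2396 without the block and 2608 at equal depth; for IB against IC 1562 became 1028 under DESeq2, 617 without the block, 985 without mouse 3 and 860 at equal depth; for putative neurons 3057 became 1938 without mouse 2 and 1048 at equal depth. Under DESeq2 61.9% of type II calls were higher, against 50.5% as reported. Differences of Slc12a5 in type II and putative neurons were not resolved at this depth.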
